A study of Mus musculus with 8 samples.

Results

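Dio2, which encodes the type 2 deiodinase, was examined with 6 other genes of thyroid hormone action in freshly sorted mouse muscle stem cells. Dio2 was picked on its difference between control and RhoA het libraries of the same replicate number, so its genotype difference is given below as a description without a test. Dio3, Thra, Thrb, Slc16a10, Rxra and Ncor1 were added for their roles in the same pathway. These 7 genes are among the 57180 in the count table, and 6 of the 7 passed the filter on low counts. The exception was Dio3. RNA sequencing had been used to look for expression and splicing changes when RhoA, a small GTPase that acts on the actin cytoskeleton, is reduced. There were 4 control libraries (titled WT, replicates 2, 5, 7 and 8) and 4 libraries titled RhoA het (replicates 5, 6, 7 and 8). The latter came from SC-RhoAfl/+ mice, which carry a floxed RhoA allele beside a wild-type allele, and their genotype field reads RhoA knockdown. The Cre driver, the age and the treatment of the animals are not given in the sources used here, and neither is whether each library came from a separate animal, so p-values measure only the spread between these libraries. Values for single libraries follow the order of the replicate numbers just given.

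Thyroid hormone reaches its target genes through a chain of steps inside the cell. The circulating prohormone thyroxine and the active hormone triiodothyronine enter through membrane transporters such as Slc16a10 (MCT10). The type 2 deiodinase, a selenoprotein of the endoplasmic reticulum, turns thyroxine into triiodothyronine, and the type 3 deiodinase, encoded by Dio3, inactivates both. Triiodothyronine binds the nuclear receptors encoded by Thra and Thrb, which sit on DNA as partners of the retinoid X receptors. Without hormone the receptors hold corepressors such as Ncor1, which recruits the deacetylase Hdac3, and with hormone they exchange these for coactivators. In muscle stem cells and myoblasts, Dio2 and Dio3 are known for setting the hormone level within the cell during differentiation and regeneration.

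The sequence just upstream of the start of Dio2 is shown because Dio2 is the gene that was picked on its difference within same-numbered pairs. Its promoter is also known for a cyclic AMP response element. The window holds 250 bases ending at the RefSeq start of the gene (GRCm38.p6, chr12:90739039-90739288, minus strand), written 5′ to 3′, with the matches of the motif search in capitals.

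Dio2 upstream window: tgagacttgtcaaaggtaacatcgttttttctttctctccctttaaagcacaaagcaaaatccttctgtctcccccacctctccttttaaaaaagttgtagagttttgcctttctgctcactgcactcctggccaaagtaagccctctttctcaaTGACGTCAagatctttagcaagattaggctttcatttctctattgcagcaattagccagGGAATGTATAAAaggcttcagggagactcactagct

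The full cyclic AMP response element TGACGTCA began 95 bases upstream of the start, and 1.55% of the 32851 RefSeq windows of this length held one on either strand. The TEAD motif GGAATG began 36 bases upstream (12.6% of windows) and abutted the TATA box TATAAA at 30 bases (12.4% of windows). The window held no match to the FoxO motif GTAAACA (3.17% of windows), to the CArG box of serum response factor (1.47%) or to the spaced direct repeat bound by thyroid hormone receptors (0.0152%). Its GC content was 41.6%, against a median of 52.4% over all windows. Windows of Dio3, Thrb, Slc16a10, Rxra and Ncor1 held no full cyclic AMP response element. The TATA box also had a match in the windows of Dio3 and Thrb, and the TEAD motif in that of Thrb. RefSeq windows were matched by symbol for 6 members; Thra was not matched. Such matches describe letters, not occupied sites, and the counts below do not bear on them.

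The libraries held 19138763 to 25606342 assigned fragments. Markers of muscle stem cells were present in every library, with Pax7 at 46.6 to 100.1 TPM and Vcam1 at 655 to 1762 TPM (TPM is the count divided by gene length and scaled to a total common to all libraries). Rhoa itself, the targeted gene, held 132.0, 147.6, 121.3 and 136.0 TPM in control against 117.2, 111.3, 112.5 and 125.0 TPM in RhoA het. Its means were 134.2 ± 10.9 and 116.5 ± 6.23 TPM (SD, n = 4 each), with RhoA het replicate 8 above control replicate 7. RhoA het replicate 6 stood apart by its endothelial and erythroid RNA. The 10 endothelial markers summed to 460.5 TPM there and to 42.3 to 121.8 TPM elsewhere, and the 5 erythroid markers to 1284 TPM there and at most 623 TPM elsewhere. Control replicate 2 and RhoA het replicate 6 carried 14358 and 14659 fragments of 4 Y-linked genes, and the other libraries at most 2. Deviations from the group means correlated across the groups at 0.544, 0.231 and 0.488 for the libraries numbered 5, 7 and 8. Libraries of different number were not compared in this way. Of 15660 genes tested over 8 libraries, 0% were called at a Benjamini-Hochberg threshold of 0.05 by the quasi-likelihood test of edgeR, and 2.38% had an unadjusted p under 0.05.

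The members spanned a wide range of levels. By median TPM over the 8 libraries the order was Slc16a10 (41.3), Dio2 (37.1), Thra (28.9), Ncor1 (16.8), Rxra (4.18), Thrb (1.85) and Dio3 (0.336). Slc16a10 was higher than Dio2 in 5 of 8 libraries, and their order differed by group. In control Slc16a10 (38.8 to 48.5) lay above Dio2 (28.9 to 37.4) in 4 of 4 libraries, while Dio2 was the higher in 3 of 4 RhoA het libraries. This change of order draws on the Dio2 values for which the gene was chosen, and is no separate result. Dio2 exceeded Thra in 6 of 8 libraries, and their ranges overlapped as well. The ranges of Thra and Ncor1, and of Ncor1 and Rxra, did not overlap. Rxra lay above Thrb in 8 of 8 libraries and Thrb above Dio3 in 8 of 8, although these ranges overlapped. Dio2 had a median above that of 79.2% of the tested genes, and Thrb above that of 20.4%.

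**Figure D1:**
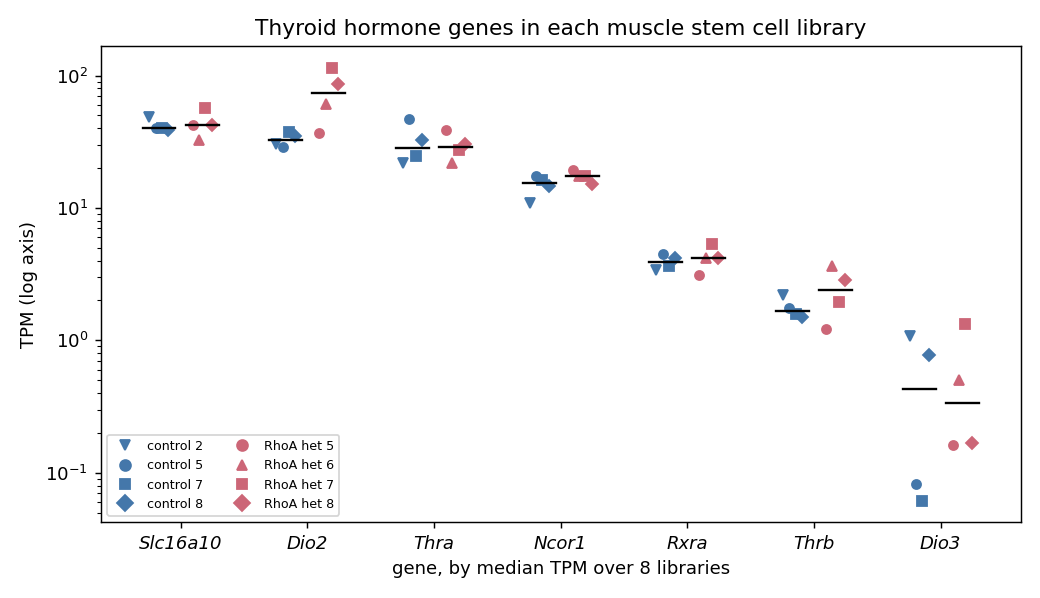
TPM of the 7 genes (log axis) in each of 8 libraries, with control in blue, RhoA het in red, a symbol for each replicate number and a black line at the group median. The RhoA het libraries of Dio2 spread from 36.9 to 115 TPM while its control libraries lie between 28.9 and 37.4 TPM, and Dio3 is near the detection limit in both groups.

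Among the deiodinases, Dio2 was the only one at an appreciable level, and it was higher in most RhoA het libraries. Dio2 (ENSMUSG00000007682.9; mm39 chromosome 12, 90691326 to 90705812, minus strand) was counted 1437, 1117, 1918 and 1570 times in the control libraries. The RhoA het libraries had 1450, 2677, 4943 and 3254 Dio2 fragments. In TPM the control libraries held 30.6, 28.9, 37.4 and 35.1, and the RhoA het libraries 36.9, 61.0, 115 and 86.6. Thus 3 of 4 RhoA het libraries lay above all control libraries, while RhoA het replicate 5 fell just below control replicate 7. In CPM RhoA het replicate 5 (68.1) was below 3 of 4 control libraries (75.9, 71.9 and 73.7) and above control replicate 5 (51.9).

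The group means of Dio2 were 33.0 ± 3.92 TPM in control and 74.9 ± 33.6 TPM in RhoA het (SD, n = 4 each), a ratio of 2.27. In CPM, which scales counts to a common total with the TMM factors of edgeR and ignores gene length, the ratio of means was 2.14. The control libraries agreed closely, with a coefficient of variation of 11.9% in TPM, against 44.8% among the RhoA het libraries. Within the same-numbered pairs that chose the gene, RhoA het was 1.28 times control for number 5, 3.08 times for number 7 and 2.47 times for number 8, again in TPM. The size of the difference therefore varied over the pairs, and the pair numbered 5 showed little of it. All 3 pairs were higher in RhoA het for 13.6% of the genes tested. For 77 genes (0.492%) they were, with a mean log2 CPM difference at least that of Dio2, which was 1.06. For 232 genes (1.48%) the smallest log2 CPM rise within a pair was at least that of Dio2, which was 0.39.

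Control replicate 2 and RhoA het replicate 6, whose numbers are not shared and which the choice of Dio2 did not use, held 30.6 and 61.0 TPM of Dio2, a ratio of 2.00. In CPM they held 75.9 and 127.3, a smaller ratio of 1.68. This is 1 library of each genotype, and it has no test. Both libraries were those with Y-linked fragments, and RhoA het replicate 6 was the one high in endothelial and erythroid RNA, whose part in its Dio2 level was not tested. Over all 8 libraries the fitted log2 fold change of Dio2 was 1.10, and without RhoA het replicate 6 it was 1.15. Leaving out RhoA het replicate 7, the highest library, gave 0.81, and leaving out RhoA het replicate 5 gave 1.33. The 3 pairs with the replicate number as a block gave 1.05. All of these fits include libraries on which Dio2 was chosen.

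**Figure D2:**
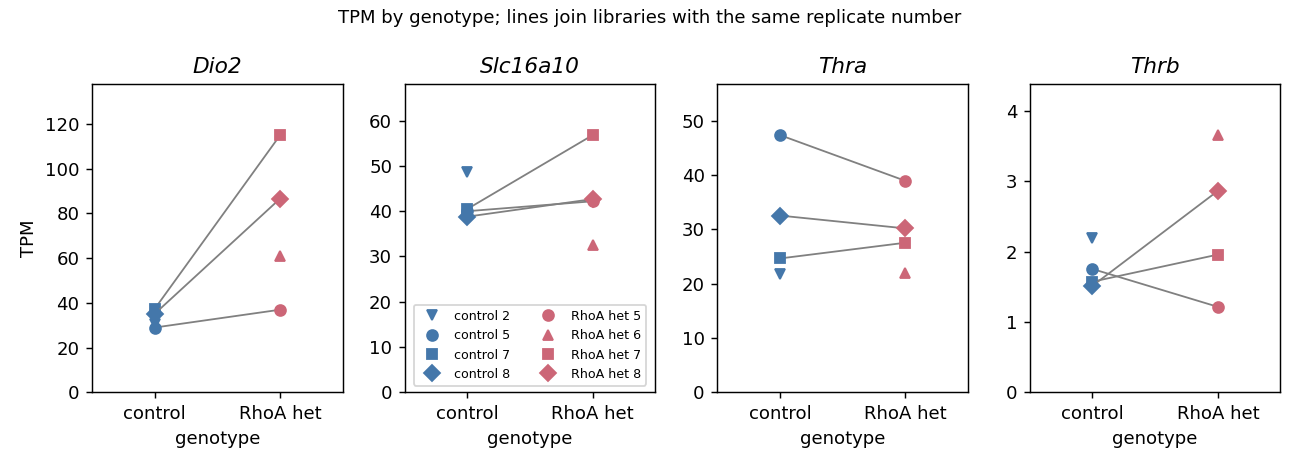
TPM of Dio2, Slc16a10, Thra and Thrb by genotype on linear axes from 0, with grey lines joining control and RhoA het libraries of the same replicate number. Dio2 rises steeply in the pairs numbered 7 (37.4 to 115) and 8 (35.1 to 86.6) and little in the pair numbered 5 (28.9 to 36.9), while the lines of Thra and Thrb do not share a direction.

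Markers of other cell types were present in the library with the most Dio2 at sums within the control range or below it. In RhoA het replicate 7 the summed TPM of the listed markers were 129 for myofibres, 83.5 for endothelium, 6633 for fibro-adipogenic cells, 235.3 for immune cells, 634.4 for mural cells, 120 for Schwann cells, 26.9 for erythroid cells and 25.9 for tenocytes. Each of these 8 sums lay below the highest control library, which held 1050, 121.8, 9054, 828.1, 1277, 202.7, 623 and 224 TPM in the same order. The immune and tenocyte sums were the lowest of the 8 libraries. Against control replicate 7, its same-numbered partner, the fibro-adipogenic sum was 6633 to 4030 TPM and the Schwann sum 120 to 112.3 TPM, and their part in its Dio2 level was not tested. RhoA het replicate 8, the second in Dio2, had mural and Schwann sums of 2192 and 244.6 TPM, above every control library, and their part in its Dio2 level was not tested. Most markers in these lists were detected in all libraries, among them 8 of 8 fibro-adipogenic and 12 of 13 myofibre genes. Levels within a list differed widely. Of the immune list Ptprc stayed at or below 0.742 TPM, while Lyz2 held 209.1 to 817.5 TPM and Cd74 1.34 to 93.0 TPM. Of the fibro-adipogenic list Pdgfra stayed at or below 4.17 TPM, while Gsn held 2551 to 6076 TPM, Col3a1 394.8 to 2485 TPM and Dcn 176.2 to 1141 TPM. In whole-population RNA, more Dio2-expressing cells and more Dio2 RNA per cell cannot be told apart.

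The inactivating deiodinase was barely detected. Dio3 (ENSMUSG00000075707.7; mm39 chromosome 12, 110245502 to 110247531, plus strand) had only 16, 1, 1 and 11 control fragments against 2, 7, 18 and 2 from RhoA het. Its level was 0.0616 to 1.08 TPM in control and 0.161 to 1.32 TPM in RhoA het, so the groups overlapped in part, with control replicates 5 and 7 lowest and RhoA het replicate 7 highest. The pairs went in both directions, from 1 to 18 fragments for number 7 and from 11 to 2 for number 8. Without the filter on low counts the log2 fold change was -0.06 with a 95% interval of -2.002 to 1.87 (edgeR adjusted p 1.00). Several-fold differences in either direction lay within that interval, which rests on few and widely varying counts. Dio2 stood above Dio3 by 28.4-fold to 607-fold in TPM, a ratio that rests on these few Dio3 fragments. Dio1, the type 1 deiodinase of liver and kidney, had 2 fragments in RhoA het replicate 7 and 0 in the other libraries, where 3 fragments, the limit that a count of 0 allows, correspond to 0.19 to 0.26 TPM over all 8 libraries.

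Hormone transporters ranged from high levels to none detected. Slc17a4 was at 0 in every library, and Slco1c1 held 0.315 to 5.00 TPM. Slc16a10 (ENSMUSG00000019838.12; mm39 chromosome 10, 39909528 to 40018254, minus strand) held 48.5, 39.98, 40.5 and 38.8 TPM in control. The RhoA het libraries held 42.2, 32.4, 56.8 and 42.7 TPM. The highest and the lowest value of the 8 were both RhoA het libraries, so the groups overlapped. RhoA het was 1.05, 1.40 and 1.10 times control in TPM for numbers 5, 7 and 8, and RhoA het replicate 6 was 0.668 times control replicate 2. Slc16a10 had a log2 fold change of -0.06 (SE 0.20, 95% interval -0.51 to 0.39, unadjusted p 0.774, edgeR adjusted p 1.00), or between 0.70-fold and 1.31-fold. With the replicate block it was 0.19 (interval -0.09 to 0.46, edgeR adjusted p 0.932), and the sign turned with several other settings, so no direction can be given. Amino acid carriers also known to move the hormone were detected, Slc7a5 at 37.2 to 60.0 TPM, Slc7a8 at 32.7 to 159.3 TPM and their shared heavy chain Slc3a2 at 532.9 to 668.5 TPM.

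Of the receptors, Thra was the main form. Thra (ENSMUSG00000058756.14; mm39 chromosome 11, 98631464 to 98659832, plus strand) stood at 21.8, 47.4, 24.7 and 32.6 TPM in control, beside 39.0, 22.0, 27.6 and 30.2 TPM for RhoA het. The libraries numbered 5 were the highest of each group, and the pairs lay close together, with RhoA het at 0.822, 1.12 and 0.927 times control for numbers 5, 7 and 8. Its log2 fold change was -0.15 (SE 0.21, interval -0.61 to 0.31, unadjusted p 0.473, edgeR adjusted p 1.00). Without control replicate 5 it was 0.0049. Thra encodes a hormone-binding receptor and a splice form that does not bind hormone, and counts per gene do not part them.

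Thra shares 263 exon bases, 5.70% of its exon length, with Nr1d1, which lies on the opposite strand and encodes the nuclear receptor REV-ERB alpha of the circadian clock. The counting command set no strand option, so fragments from the shared bases cannot be told apart. Nr1d1 was at 99.1, 191.9, 96.7 and 46.5 TPM in control, beside 208.1, 78.9, 45.9 and 64.8 TPM for RhoA het. It was thus also highest in the libraries numbered 5, and its part in the Thra counts was not tested. Dio2 shares 100 exon bases (1.56%) with Gm26512 on the opposite strand, which had 52 to 179 fragments, against at least 1117 for Dio2. Ncor1 shares 82 bases with Pigl and 1 base with Ttc19, 0.64% and 0.0078% of its exon length. The remaining members share no exon base with another gene in the table.

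Thrb, the second hormone receptor gene, was expressed at a low level. Thrb (ENSMUSG00000021779.20; mm39 chromosome 14, 4431611 to 4809435, minus strand) gave 119, 78, 93 and 78 control fragments, beside 55, 185, 97 and 124 from RhoA het. In TPM this was 2.19, 1.75, 1.57 and 1.51 against 1.21, 3.66, 1.96 and 2.86, with RhoA het holding both the lowest and the highest value. This gave Thrb a fitted log2 difference of 0.37 (SE 0.38, interval -0.47 to 1.22, unadjusted p 0.344, edgeR adjusted p 1.00). It was 0.056 without RhoA het replicate 6, the library high in endothelial and erythroid RNA. Thra made up 85.7% to 97.0% of the joint TPM of the receptor genes over the 8 libraries. Its share was 94.2 ± 2.46% in control and 91.9 ± 4.70% in RhoA het (SD, n = 4 each), lowest in RhoA het replicate 6.

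Rxra was not the leading retinoid X receptor in these cells. Rxra (ENSMUSG00000015846.17; mm39 chromosome 2, 27566452 to 27652969, plus strand) lay at 3.38, 4.48, 3.67 and 4.21 TPM in control, beside 3.13, 4.20, 5.37 and 4.17 TPM for RhoA het. The groups overlapped, with both extremes in RhoA het. It took 10.1% to 24.7% of the joint TPM of Rxra, Rxrb and Rxrg, with the highest share in RhoA het replicate 6. Rxrb held 20.2% to 33.4%. Rxrg, at 8.27 to 20.9 TPM, held the rest and exceeded Rxra in every library. The log2 fold change of Rxra was 0.03 (SE 0.21, interval -0.44 to 0.49, unadjusted p 0.894, edgeR adjusted p 1.00), near 0 in every fit and with no stable sign. Rxrg averaged 15.8 ± 3.36 TPM in control and 16.95 ± 5.87 TPM in RhoA het (SD, n = 4 each).

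The corepressor Ncor1 was expressed at a middle level among the members. Ncor1 (ENSMUSG00000018501.18; mm39 chromosome 11, 62207252 to 62349367, minus strand) was at 10.9, 17.4, 16.2 and 14.6 TPM in control, beside 19.5, 17.4, 17.5 and 15.1 TPM for RhoA het. The groups overlapped, and the low value belonged to control replicate 2. Ncor1 had a log2 fold change of 0.17 (SE 0.11, interval -0.08 to 0.43, unadjusted p 0.164, edgeR adjusted p 1.00), which bounds it between 0.94-fold and 1.34-fold. With the replicate block it was 0.06 (interval -0.20 to 0.32, edgeR adjusted p 0.960).

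**Figure D3:**
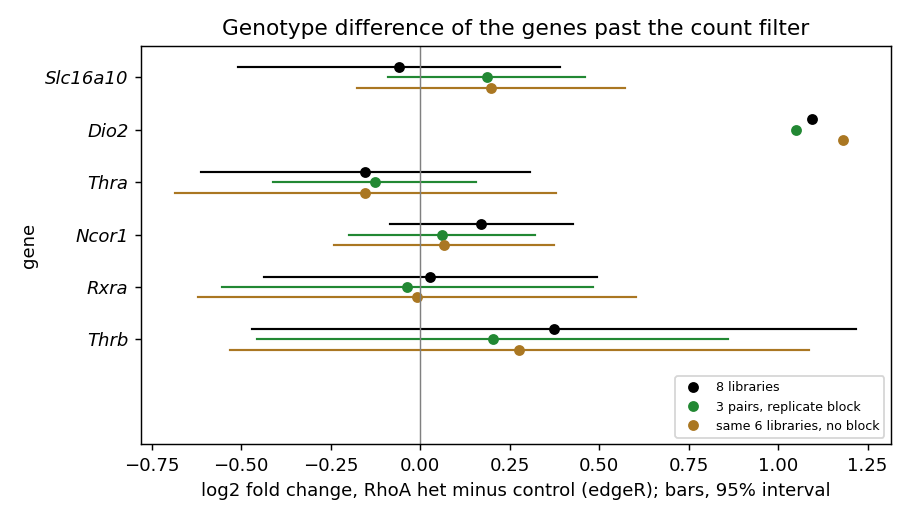
Log2 fold change (RhoA het minus control, edgeR) of the 6 members past the count filter over 8 libraries, over the 3 pairs with a replicate block, and over the same 6 libraries without it. Bars are 95% intervals and are omitted for Dio2, which was chosen for its difference within same-numbered pairs. The intervals of Slc16a10, Thra, Ncor1, Rxra and Thrb include 0 in all 3 fits, and the Dio2 estimates lie between 1.05 and 1.18.

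In the comparison of genotypes, none of the 5 other members that could be tested passed the threshold (edgeR over 8 libraries), where 0% of all genes did. None had an unadjusted p under 0.05 either, in edgeR or in DESeq2. The groups overlapped in CPM for all 7 members, while they did not overlap for 1.81% of the genes tested. With the replicate block, 0.0127% of 15714 genes passed the adjusted threshold and 5.26% an unadjusted p under 0.05, none of them among these 5. These results do not show that the 5 genes were equal in the groups. The interval of Thrb reached a 2.33-fold higher level in RhoA het and that of Thra a level 0.65 times control.

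A wider list of 59 genes of the pathway, Dio2 left out, was then read in the same fits. It held the members beside further transporters, receptors, cofactors, regulators of the deiodinases and hormone-responsive genes, and 50 of them passed the count filter. Over 8 libraries 0 passed in either direction (edgeR and DESeq2), and 1 had an unadjusted p under 0.05, or 2% against 2.38% of all genes. That gene was Tbl1xr1, a subunit of the corepressor complex, named after its value was seen. Tbl1xr1 held 7.71, 13.2, 8.99 and 8.56 TPM in control, beside 7.501, 8.06, 7.47 and 6.88 TPM for RhoA het. Its log2 fold change was -0.42 (SE 0.15, unadjusted p 0.0174, edgeR adjusted p 1.00). The groups overlapped, with control replicate 2 below RhoA het replicate 6. The median log2 fold change of the list was 0.017, with 27 genes above 0 and 23 below, beside a median of -0.00071 over all genes.

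Differences between the roles were not tested. The median farthest from 0 was that of the imprinted cluster that holds Dio3. Its 5 tested genes had a median log2 fold change of 0.30, with 4 above 0, and none passed the test. That median lay inside the 10th to 90th percentile of all genes (-0.28 to 0.40). The standard errors of these 5 genes ran from 0.20 for Rian to 0.75 for Dlk1. The 6 transporters tested had a median log2 fold change of -0.056, the 5 receptors -0.0069, the 6 corepressor genes -0.001 and the 7 coactivators 0.064. The 3 regulators of Dio2 protein turnover had a median of 0.082 and the 6 selenoprotein synthesis genes, which the deiodinases need for their selenocysteine, -0.015. Foxo3, a known activator of Dio2 in muscle cells, held 9.55 to 17.5 TPM in control and 12.1 to 18.0 TPM in RhoA het (log2 fold change 0.18, SE 0.17, edgeR adjusted p 1.00). It was the highest of the 4 listed regulators of Dio2 and Dio3, whose median was -0.019, with 2 above 0 and 2 below. The 8 hormone-responsive genes tested had a median of -0.057, with 4 above 0 and 4 below. Among them Thrsp averaged 4.02 ± 1.96 and 6.74 ± 3.50 TPM in control and RhoA het, Klf9 164.2 ± 14.9 and 197.5 ± 36.1 TPM, and Myod1 2445 ± 595 and 2042 ± 383 TPM (SD, n = 4 each; edgeR adjusted p 1.00 for each).

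**Figure D4:**
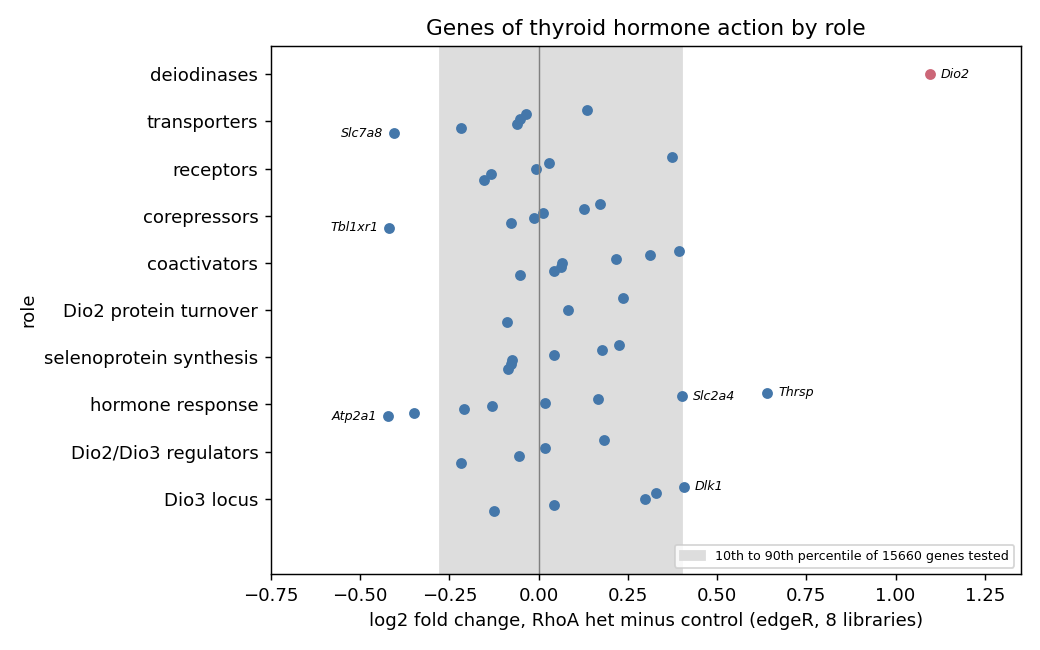
Log2 fold change (RhoA het minus control, edgeR, 8 libraries) of each tested pathway gene, by role, with genes beyond 0.4 in size named. The grey band spans the 10th to 90th percentile of 15660 genes, -0.28 to 0.40, and Dio2, in red at 1.10, was chosen for its difference within same-numbered pairs, which are 6 of these 8 libraries.

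With the replicate block over the 3 pairs, 1 of 51 tested list genes passed the adjusted threshold, beside the 0.0127% of all genes above. This was Atp2a1, the fast calcium pump of muscle fibres and a hormone-responsive gene, at a log2 fold change of -1.40 (SE 0.17, edgeR adjusted p 0.0349). Atp2a1 held 13.2, 78.4, 41.3 and 12.96 TPM in control, beside 35.4, 52.4, 11.5 and 6.33 TPM for RhoA het. It moved with the myofibre markers, a list that includes it, whose summed TPM was 110.7, 1050, 395.2 and 141.6 in the control libraries and 421.9, 848.2, 129 and 82.8 in the RhoA het libraries. Their part in its difference was not tested. Over all 8 libraries its log2 fold change was -0.42 (SE 0.70, edgeR adjusted p 1.00). In the block fit 6 of 51 list genes, or 11.8%, had an unadjusted p under 0.05, against 5.26% of all genes. Besides Atp2a1 these were Tbl1xr1 (-0.51), the coactivator Crebbp (0.28), Klf9 (0.33) and, from the Dio3 cluster, the noncoding RNAs Meg3 (0.41) and Mirg (0.53), named after their values were seen and given as log2 fold changes with edgeR adjusted p of at least 0.611.

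The genes whose log2 CPM followed Dio2 most closely over the 8 libraries were Bcl2l1 (Pearson r 0.960), Mxd1 (0.943), Rsrc1 (0.937), Mroh1 (0.927) and A430033K04Rik (0.918). These are the highest of 15660 tested genes on 8 points that share library scaling, and they are given as a description. Bcl2l1, which encodes the survival protein BCL-XL, ran from 20.7 TPM in control replicate 2 to 33.5 TPM in RhoA het replicate 7, a far narrower range than Dio2. Mxd1, a partner of MAX that opposes MYC, ran from 14.3 to 22.6 TPM between the same libraries. Among the members, r with Dio2 was 0.58 for Rxra, 0.51 for Thrb, 0.31 for Slc16a10, 0.17 for Ncor1 and -0.54 for Thra.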

How the data were processed

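The authors deposited a table of counts per gene and a table of TPM per gene for 8 libraries. The counting command named 10 alignments, more than the libraries deposited. Per the file headers, featureCounts 1.6.4 counted read pairs of STAR alignments on exons of the GENCODE M34 annotation of mm39, with no strand option; the submitters' processing notes also name FastQC, cutadapt and DESeq2. The deposited TPM equalled the values recomputed from counts and gene lengths. The gene lengths deposited in the same table are in bases. Symbols were matched on gene identifiers for 51884 of 57180 genes. Marchf6 was not matched.

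Genes passing filterByExpr were tested with edgeR 4.0.16 (quasi-likelihood F test, TMM, R 4.3.3) over 8 libraries, with Benjamini-Hochberg adjustment over all genes and a threshold of 0.05. Log2 CPM used a prior count of 2. The fit was tested on simulated data. Replicate numbers 5, 7 and 8 occur in both groups and were also used as a block. Deviations from the group means correlated at 0.544, 0.231 and 0.488 in these pairs. Libraries of different number were not compared, so the correlations do not show that the number matters. Alternatives used DESeq2 1.42.0, limma 3.58.1, other scalings and filters, and left out each library.

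The members and lists were chosen with earlier results of these data known. Named genes were the members, paralogues (some not reported here), overlapping genes, list genes past the threshold and the 5 genes most like Dio2; others are named for their role.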

Additional observations from a re-analysis of the deposited data

How the results depend on the processing

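The count of changed genes was 0 over 8 libraries and in 17 of 18 alternatives; with the replicate block it was 2, of which 1 (Atp2a1) belonged to the pathway list. Genes with an unadjusted p under 0.05 numbered 372 of 15660 tested, against 912 of 32507 without the filter on low counts, 827 of 15714 with the replicate block and 703 of 16112 without control replicate 5; for the pathway list this count ranged from 0 (limma on log2 TPM) to 6 (replicate block). The log2 fold change of Dio2 stayed between 0.81 and 1.33 when each library was left out, and the cause of its lower value without RhoA het replicate 7 is that the highest library was removed. These fits share libraries on which Dio2 was chosen, so this range is no separate support for its difference. Thra ranged from -0.28 to 0.0049 over the same omissions. Slc16a10 turned positive with library totals (0.012), limma-voom (0.020), limma on log2(TPM + 1) and on log2(TPM + 0.1) (0.030 each), the replicate block (0.19) and its 6 libraries fitted unpaired (0.20), and ranged from -0.22 to 0.13 with a library left out. Rxra was -0.035 with the replicate block and -0.0090 when those 6 libraries were fitted unpaired, and ranged from -0.11 to 0.16 with a library left out. The cause of these turns was not tested. Thrb and Ncor1 kept their sign in all 18 alternatives. No adjusted p of the 5 members tested fell below 0.854 in any alternative. Dio3, at 1 to 18 fragments a library, was too sparse and too variable within the groups for a direction to be given.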
